A study of Homo sapiens with 12 samples.

Results

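GOLGA7 on chromosome arm 8p11 and SLC25A36 on 3q23 were followed with named neighbours of each, GINS4, SFRP1 and ANK1 beside GOLGA7 and SPSB4 and ZBTB38 beside SLC25A36. That makes 7 genes of the 28278 symbols in the raw count tables. GOLGA7 and SLC25A36 were picked because doxycycline (Dox) raised them more in the libraries labelled MED30 and MYC than in those labelled MYC&MED30, so their responses to Dox are described below without a test. The other 5 were picked by position, and their responses were tested. The cells were Mia PaCa-2, an established line from a pancreatic carcinoma, in 3 stable derivatives that carry a Dox-inducible, puromycin-selected vector for MED30, for MYC with a 3xHA tag, or for both. Each line was left without Dox (control) or given 0.5 μg/ml Dox (overexpression) for 1 day by the methods, against 2 days in the text of the results. Each of the 6 groups had 2 libraries, 12 in all. Whether a line is a clone or a pool, and whether the 2 libraries came from separate cultures, is not stated in the sources used here, so the spread behind each p-value may be technical.

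GOLGA7 is a Golgi-associated palmitoylated protein that works as the partner of ZDHHC9, a palmitoyltransferase of HRAS and NRAS. Palmitoylation adds a fatty acid to cysteines and helps hold RAS proteins at the plasma membrane, and thioesterases remove it again. SLC25A36 belongs to the mitochondrial carrier family, whose members move metabolites across the inner membrane, and carries pyrimidine nucleotides. GINS4 is a subunit of GINS, part of the helicase that opens DNA for replication. SFRP1 is a secreted antagonist of Wnt ligands. ANK1 is the ankyrin first known from red cells, where it ties the spectrin skeleton to the membrane. SPSB4 is a substrate adaptor of a ubiquitin ligase, and ZBTB38 is a zinc finger protein that binds methylated CpG. Precision run-on sequencing (PRO-seq) reads RNA at engaged RNA polymerases, so a value here stands for transcription over the gene body and not for mature mRNA. In such bulk libraries, fewer cells with an active gene and less transcription per cell cannot be told apart.

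The 8 MYC and MYC&MED30 tables hold raw counts, of 20616713 to 29881914 a library in 7 of them and 1257499 in MYC&MED30 control 2. The 4 MED30 tables hold scaled values that add up to 6379143 to 6519353. In the libraries labelled MYC, the MYC gene was at 387 to 398 counts per 1000000 (CPM) without Dox and 261 to 269 with it, while MED30 was at 32.1 to 32.9 and 620 to 815 CPM, so the labelled factor was not the one that rose, and these are called the libraries labelled MYC throughout. Each MED30 library also stood in a nearly fixed ratio to the MYC library of the same arm and number. The interquartile range of the log2 ratio over 3349 to 3352 genes was 0.0586 to 0.0760 in those 4 pairs and 0.117 to 0.835 in the other 28. Over 3348 genes, log2 ratios of replicate 1 to 2 in MED30 and MYC correlated at 0.86 without Dox and 0.88 with it. Those in MED30 and MYC&MED30 correlated at -0.11 and -0.33. The MED30 and MYC responses below are therefore not treated as separate measurements, and a like value in both is not a repeat. Of the markers, KRT8, KRT18 and VIM were read in all 12 libraries, while CDKN2A, which the line has lost, reached at most 0.375 CPM. Summed leukocyte markers reached 30.5 to 46.7 CPM, nearly all CD68 (30.0 to 45.8), and summed fibroblast markers 143 to 227, nearly all COL1A2 (140.0 to 227). Summed endothelial markers reached 6.28 to 14.7, and PTPRC, CD3E, DCN and LUM reached at most 1.45.

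GOLGA7 rose with Dox in every line. It had 275 and 198 reads in the controls labelled MYC, or 11.1 and 8.66 CPM after TMM scaling (edgeR's trimmed mean scaling of library sizes), and 2017 and 2472 reads with overexpression, or 80.4 and 78.1 CPM. In MYC&MED30 it had 900 and 39 reads without Dox, or 35.3 and 28.7 CPM, and 1459 and 1821 with it, or 68.3 and 65.2 CPM. The 39 reads of the shallow library allow 20.4 to 39.2 CPM (exact Poisson 95% interval, counting error only), which lies above both controls labelled MYC and below both overexpression libraries. The scaled values of the MED30 libraries were 73 and 57 without Dox and 592 and 616 with it. No control library overlapped an overexpression library of its line, in the values that also chose the gene.

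As log2 fold changes, which chose the gene, GOLGA7 stood at 3.00 (SE 0.12) in the libraries labelled MYC, 3.09 (SE 0.12) in MED30 and 0.97 (SE 0.12) in MYC&MED30, or 7.98-fold, 8.49-fold and 1.96-fold. The response in MYC&MED30 was lower than that in MYC by 2.03 on the log2 scale (-2.03, SE 0.16), about 4.08-fold. Most of that gap lay in the uninduced level. Mean GOLGA7 was 32.0 ± 4.65 CPM (SD, n = 2) in MYC&MED30 controls and 9.90 ± 1.74 in MYC controls, 3.23-fold higher (1.69 on the log2 scale). With Dox it was 66.8 ± 2.21 in MYC&MED30 and 79.2 ± 1.67 in MYC, 1.19-fold higher in the latter (-0.25 on the log2 scale). From low to high the 4 groups thus ran MYC control, MYC&MED30 control, MYC&MED30 overexpression and MYC overexpression. In no neighbouring pair of that order did the libraries overlap. The order comes from the values that chose the gene, and the share of all genes with such an order is not given here, so it is a description.

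**Figure D1:**
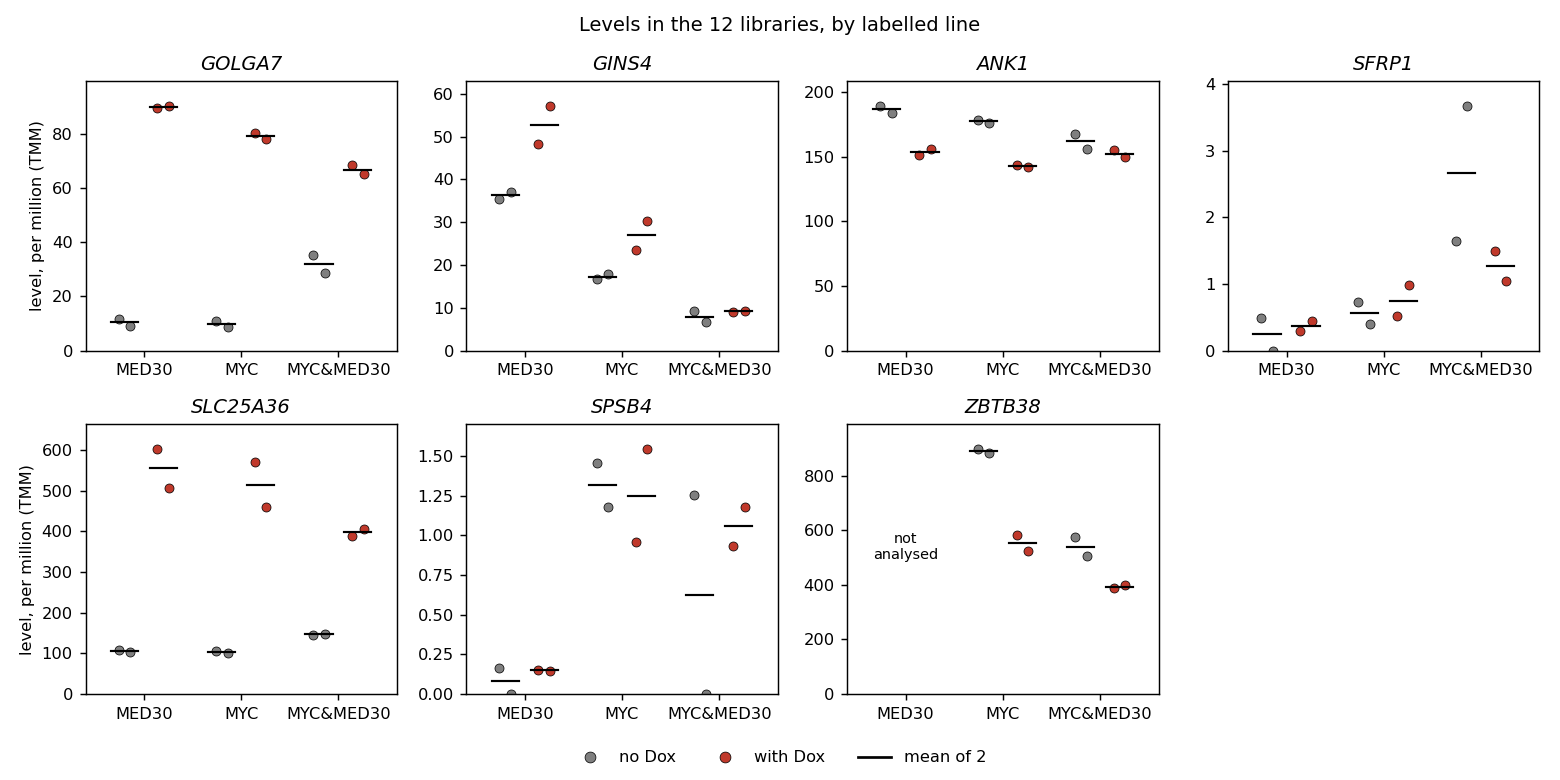
Level of each gene in each library, CPM after TMM scaling (vertical axis, from 0), by labelled line (horizontal axis), with libraries without Dox in grey, with Dox in red and the mean of 2 as a bar. MED30 values were scaled separately, so levels are to be read within a line. GOLGA7 controls of MYC&MED30 (35.3 and 28.7) sit above those labelled MYC (11.1 and 8.66), and the induced levels lie nearer to each other.

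SLC25A36 rose in every line too, with a smaller spread between lines. It had 2626 and 2327 reads in the MYC controls, or 106 and 102 CPM, against 14304 and 14568 with overexpression, or 570 and 460 CPM. In MYC&MED30 the reads were 3724 and 200 without Dox, both near 147 CPM (146 and 147), and 8306 and 11323 with it, or 389 and 405 CPM. The scaled MED30 values went from 660 and 638 to 3995 and 3449. Here as well no control library overlapped an overexpression library of its line, again in the values that chose the gene.

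The log2 fold changes of SLC25A36, which chose it, were 2.31 (SE 0.10) in MYC, 2.39 (SE 0.08) in MED30 and 1.44 (SE 0.11) in MYC&MED30, or 4.95-fold, 5.25-fold and 2.72-fold. The difference was -0.87 (SE 0.15). It was spread over both arms. Mean SLC25A36 was 146 ± 0.831 CPM (SD, n = 2) in the MYC&MED30 controls against 104 ± 3.16 in the MYC controls, 1.41-fold higher. With Dox it was 397 ± 11.7 in MYC&MED30 against 515 ± 78.0 in MYC, 1.30-fold higher in MYC. The order of the 4 groups was the same as for GOLGA7, and no neighbours in it overlapped, though MYC overexpression 2 (460 CPM) lay closer to the MYC&MED30 libraries than to MYC overexpression 1. This order too comes from the values that chose the gene and is a description.

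SLC25A36 and SPSB4 are shown with the bases ahead of their start, since SLC25A36 rose and SPSB4, the next gene on the same strand, stayed near the lower limit of detection. SLC25A36 lies on chromosome 3 at 140941836 to 140980995 on the plus strand and SPSB4 at 141051347 to 141148611, also plus (RefSeq, GRCh38.p14). The sequences are the 250 bases before each RefSeq start, chr3:140941586-140941835 and chr3:141051097-141051346, plus strand, with motif matches in capitals.
SLC25A36: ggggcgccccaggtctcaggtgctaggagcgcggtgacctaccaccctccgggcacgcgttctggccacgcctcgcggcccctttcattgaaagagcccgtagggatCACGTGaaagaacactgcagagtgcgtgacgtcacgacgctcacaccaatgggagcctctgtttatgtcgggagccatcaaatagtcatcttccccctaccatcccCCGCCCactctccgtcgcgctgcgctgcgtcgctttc
SPSB4: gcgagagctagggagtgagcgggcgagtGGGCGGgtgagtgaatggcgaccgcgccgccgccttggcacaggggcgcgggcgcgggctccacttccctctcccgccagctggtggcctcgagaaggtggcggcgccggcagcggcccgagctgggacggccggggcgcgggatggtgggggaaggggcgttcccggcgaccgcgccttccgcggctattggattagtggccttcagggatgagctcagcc

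The motifs searched in the windows of 300 bases (250 before to 50 after the start) were the palindrome CACGTG, the letters of a canonical E-box, its variant CATGTG on both strands, the GC box CCGCCC on both strands and TATAAA on the plus strand. The window of SLC25A36 held 1 CACGTG, starting 143 bases before the start, and 2 GC boxes, of which 1 lies after the start. Among the 35116 windows of the table, 7.26% held CACGTG, 11.1% CATGTG, 45.0% CCGCCC and 7.33% TATAAA. SPSB4 held 1 GC box, 222 bases before its start, and none of the other letters. ZBTB38, with 10 windows in the table, held no CACGTG in any, CATGTG in 2, a GC box in 3 and TATAAA in 1. A match in these letters is not a binding site, and GOLGA7, GINS4, SFRP1 and ANK1 were not searched.

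GINS4 is the nearest gene to GOLGA7. GOLGA7 spans 41490396 to 41510980 of chromosome 8 and GINS4 41529261 to 41545030, both on the plus strand (RefSeq, GRCh38.p14), with 18.3 kb between them. GINS4 had 412 and 407 reads in the MYC controls, or 16.7 and 17.8 CPM, and 592 and 960 with overexpression, or 23.6 and 30.3 CPM. In MYC&MED30 it had 234 and 9 reads without Dox, or 9.17 and 6.62 CPM, and 194 and 262 with it, or 9.09 and 9.38 CPM, and these groups overlapped. It rose 1.57-fold in the libraries labelled MYC (log2 0.65, SE 0.13, adjusted p = 0.0011), where 5.32% of the 19318 genes tested rose and 7.71% fell. In MYC&MED30 the log2 fold change was 0.06 (95% interval -0.31 to 0.42, adjusted p = 0.913), where 3.65% rose and 3.09% fell. In MED30 it rose by 0.53 (SE 0.10, limma adjusted p = 0.00836), where 7.37% of 14780 genes rose and 8.63% fell. The difference between MYC&MED30 and MYC did not pass the test (-0.59, SE 0.22, adjusted p = 0.229), a comparison in which 0.714% of genes were higher and 0.357% lower. That difference passed without MYC overexpression 1 (-0.76, adjusted p = 0.0272), while the MED30 rise lost its call with no filter on low values (adjusted p = 0.0879).

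GINS4 also stood out in how its values compare between the tables. The MED30 value over the MYC count of the same arm and number was 0.406 to 0.565 for GINS4, against 0.249 to 0.294 for GOLGA7, 0.236 to 0.284 for ANK1 and 0.237 to 0.279 for SLC25A36, and the medians over all genes compared were 0.244 to 0.292. The part of gene models or counting rules in this was not tested. GINS4 rose in both sets of tables, which is not a repeat.

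ANK1 lies 142 kb beyond GOLGA7 on the minus strand. It had 178 and 176 CPM in the MYC controls and 143 and 142 CPM with overexpression, and in MYC&MED30 168 and 156 CPM without Dox and 155 and 150 CPM with it. In every line the overexpression libraries lay below the controls. ANK1 fell by 0.31 on the log2 scale in MYC (SE 0.09, adjusted p = 0.0159) and by 0.28 in MED30 (SE 0.06, limma adjusted p = 0.0166). In MYC&MED30 the value was -0.11 (95% interval -0.30 to 0.09, adjusted p = 0.604), and the difference was 0.21 (SE 0.13, adjusted p = 0.543). The MYC call was lost in 7 of 15 alternatives, among them library size alone (adjusted p = 0.0602), the replicate block (0.0848) and the fits without either MYC control or either MYC&MED30 overexpression library (0.0546 to 0.278). The MED30 call was lost in 4 of 9, without either control (0.230 and 0.316), without TMM scaling (0.0984) and with no filter (0.0672).

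SFRP1, 181 kb before GOLGA7 on the minus strand, was barely read. It had 18, 9, 13 and 31 reads in MYC controls 1 and 2 and overexpression 1 and 2, and 42, 5, 32 and 29 in the same order in MYC&MED30. The MED30 tables list 3, 0, 2 and 3, below the filter. Log2 fold changes were 0.43 (SE 0.50, adjusted p = 0.661) in MYC and -0.60 (SE 0.49, adjusted p = 0.564) in MYC&MED30, and the difference of -1.03 had a 95% interval from -2.46 to 0.41 (adjusted p = 0.589).

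ZBTB38 moved against SLC25A36, from which it is separated by 343 kb on the same strand. It had 22205 and 20222 reads in the MYC controls, or 899 and 885 CPM, and 14606 and 16588 with overexpression, or 582 and 524 CPM. In MYC&MED30 it had 14659 and 687 reads without Dox, or 574 and 505 CPM, and 8286 and 11105 with it, or 388 and 398 CPM. All overexpression libraries lay below the controls of their line, and the MYC&MED30 controls overlapped the MYC libraries with Dox. ZBTB38 fell by 0.69 in MYC (SE 0.10, adjusted p = 9.34e-06) and by 0.47 in MYC&MED30 (SE 0.10, adjusted p = 0.00308), 1.61-fold and 1.38-fold. The difference of 0.22 did not pass the test (SE 0.14, adjusted p = 0.555). The MYC&MED30 call was lost without MYC&MED30 control 1 (-0.34, adjusted p = 0.155) or without either overexpression library (0.120 and 0.0859). ZBTB38 in the MED30 libraries was not analysed here.

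SPSB4, 70.4 kb beyond SLC25A36, had 36, 27, 24 and 49 reads in MYC controls 1 and 2 and overexpression 1 and 2, and 32, 0, 20 and 33 in MYC&MED30. The 0 of 1257499 reads in MYC&MED30 control 2 allows up to 2.21 CPM (3 counts, counting error only), more than the 1.25 CPM of control 1, so a change there was not detectable at this depth. Log2 fold changes were -0.06 (SE 0.41, adjusted p = 0.952) in MYC and -0.09 (SE 0.49, adjusted p = 0.960) in MYC&MED30. The MED30 tables list 1, 0, 1 and 1.

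Around GOLGA7, 18 other genes of the tables lie within 1 Mb, and 14 passed the filter on low counts. In MYC, GINS4 rose and ANK1 fell, 1 each way, with a median log2 fold change of -0.05 over the 14 against 0.01 over all genes tested. That is 7.14% of them each way, near the 5.32% of all genes that rose and the 7.71% that fell. In MYC&MED30 the median was 0.05 against 0.02 over all genes. Only PLAT, tissue plasminogen activator at 664 kb, passed the test there (0.66, SE 0.12, edgeR adjusted p = 0.000524), 7.14% of the 14 against 3.65% of all genes that rose. Its call was lost without MYC&MED30 control 1 (adjusted p = 0.205), and its difference from MYC was 0.57 (SE 0.16, adjusted p = 0.0763). In MED30, 11 were tested, and 18.2% rose and 9.09% fell, against 7.37% and 8.63% of all genes. With so few genes these are read as single genes. GINS4 and POLB, DNA polymerase beta, rose there (POLB 0.27, SE 0.07, limma adjusted p = 0.0369) and ANK1 fell. POLB lost its call in 4 of 9 alternatives, among them those without either control. The next genes, GPAT4, an enzyme of glycerolipid synthesis 67.2 kb beyond GOLGA7, the homeobox gene NKX6-3 and, on the other side, ZMAT4, stood at -0.09 (SE 0.10), -0.59 (SE 0.27) and -0.01 (SE 0.26) in MYC, with adjusted p = 0.608, 0.167 and 0.990. In MYC&MED30 they stood at 0.05 (SE 0.10), 0.24 (SE 0.40) and -0.12 (SE 0.33), with adjusted p = 0.860, 0.817 and 0.904. For NKX6-3 and ZMAT4 the group means there ran against the sign of the fit (2.08 without and 1.62 CPM with Dox, and 2.07 and 2.35 CPM), with 4 and 2 reads in control 2, so no direction is given for them. No gene of the window passed the test of the difference, by edgeR or by DESeq2. There 3 had an unadjusted edgeR p under 0.05 and a log2 value beyond 0.35, GINS4 (-0.59), KAT6A (0.42) and PLAT (0.57). The share of all genes within those limits is not given here, so the 3 are read as single genes. GOLGA7, at 3.00, lay outside the range of its tested neighbours in MYC (-0.59 to 0.65), and at 0.97 outside theirs in MYC&MED30 (-0.60 to 0.66). It was chosen on these responses, so this is a description.

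Around SLC25A36 the window held 11 genes, of which 9 were tested. ZBTB38 and RASA2, a GTPase-activating protein for RAS, fell in MYC (RASA2 -0.33, SE 0.11, adjusted p = 0.0387), and RASA2 fell in MED30 (-0.28, SE 0.07, limma adjusted p = 0.0350), where 6 were tested. With so few genes the 2 of 9 in MYC, against 7.71% of all genes, are read as single genes and not as a property of the window. So is RASA2 in MED30, 16.7% of the 6 against 8.63% of all genes. The RASA2 calls were lost in 8 of 15 and 4 of 9 alternatives, in MYC among others without either MYC control, MYC overexpression 2 or either MYC&MED30 overexpression library, and in MED30 without either control. In MYC&MED30 the only call was ZBTB38, 11.1% of the 9 against 3.09% of all genes that fell. RASA2 stood there at -0.18 (SE 0.11, edgeR adjusted p = 0.396). PXYLP1, a phosphatase of proteoglycan synthesis between SPSB4 and ZBTB38, stood at -0.19 (SE 0.12, adjusted p = 0.342) in MYC and -0.21 (SE 0.13, adjusted p = 0.433) in MYC&MED30, and CLSTN2, a calsyntenin on the other side, at 0.73 (SE 0.30, adjusted p = 0.107) and 1.04 (SE 0.37, adjusted p = 0.0974). Medians over the 9 genes were -0.11 in MYC and -0.16 in MYC&MED30. None of the 9 passed the test of the difference, by edgeR or by DESeq2, and none had an unadjusted p under 0.05 with a log2 value beyond 0.35. SLC25A36 lay above the range of the tested neighbours in MYC (-0.69 to 0.73) and in MYC&MED30 (-0.71 to 1.04), a description as well, since its responses chose it.

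**Figure D2:**
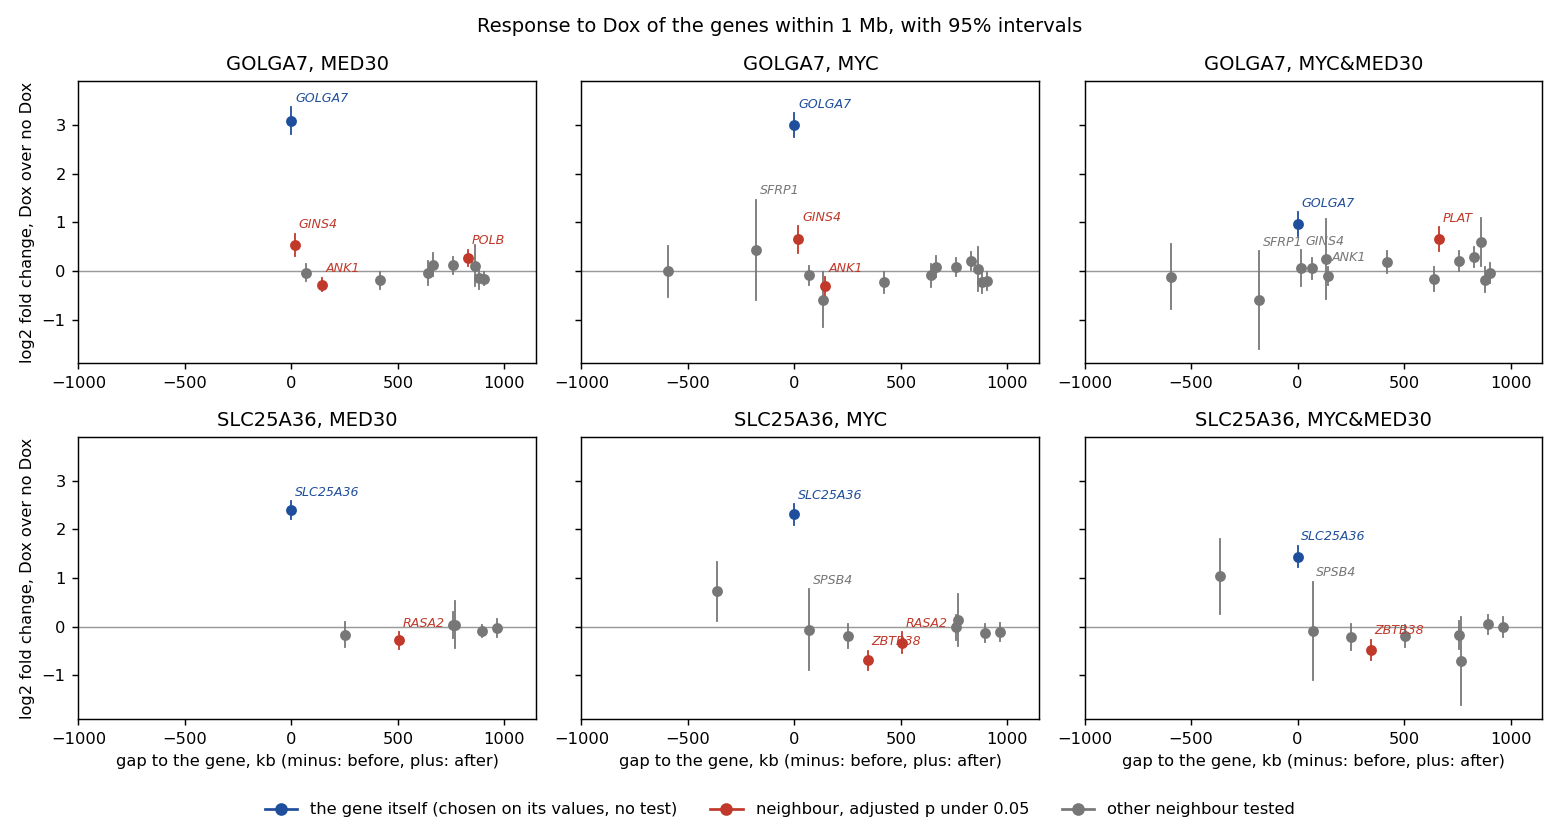
Log2 fold change with Dox (vertical axis) of each tested gene within 1 Mb against its gap to GOLGA7 (top) or SLC25A36 (bottom) in kb (horizontal axis), with bars for 95% intervals, for the MED30, MYC and MYC&MED30 libraries. Blue marks the gene chosen for its response, red a neighbour with adjusted p under 0.05 and grey the other neighbours. GINS4 at 18.3 kb is red in MED30 and MYC, and ZBTB38 at 343 kb is red below 0 in MYC and MYC&MED30.

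A ratio of genes of the same library does not depend on how libraries were scaled. GOLGA7 over GINS4 was 0.667 and 0.486 in the MYC controls and 3.41 and 2.58 with overexpression, a 5.20-fold step. In MYC&MED30 it was 3.85 and 4.33 without Dox, the latter with an interval from 2.06 to 10.2 (exact Clopper-Pearson, counting error only), and 7.52 and 6.95 with it, a 1.77-fold step. The MYC&MED30 controls thus lay above the induced MYC libraries, and GINS4 itself was 2.18-fold lower in them than in the MYC controls. In MED30 the ratio was 0.335 and 0.248 without Dox and 1.85 and 1.58 with it, a 5.93-fold step. There GINS4 stood at 0.406 to 0.565 of the MYC count and GOLGA7 at 0.249 to 0.294, so this ratio is to be read within MED30. Over the sum of 13 neighbours GOLGA7 in MED30 went from 0.0134 and 0.0106 to 0.107 and 0.109. Over the sum of the 13 tested neighbours found in all tables, GOLGA7 went from 0.0139 and 0.0109 to 0.108 and 0.110 in MYC (8.83-fold) and from 0.0381 and 0.0354 to 0.0739 and 0.0685 in MYC&MED30 (1.94-fold).

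SLC25A36 over ZBTB38 was 0.118 and 0.115 in the MYC controls and 0.979 and 0.878 with overexpression, a 7.95-fold step. In MYC&MED30 it was 0.254 and 0.291 without Dox and 1.00 and 1.02 with it, a 3.72-fold step. The induced ratio thus lay slightly above that of MYC, and the uninduced one was over it by more. ZBTB38, the denominator, itself fell with Dox, from a mean of 892 to 553 CPM in MYC and from 540 to 393 in MYC&MED30. These steps are thus not of SLC25A36 alone. Over the sum of 8 neighbours the steps were 5.50-fold in MYC, 5.71-fold in MED30 and 2.75-fold in MYC&MED30. In every one of these ratios the smaller step of MYC&MED30 started from a higher control value.

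**Figure D3:**
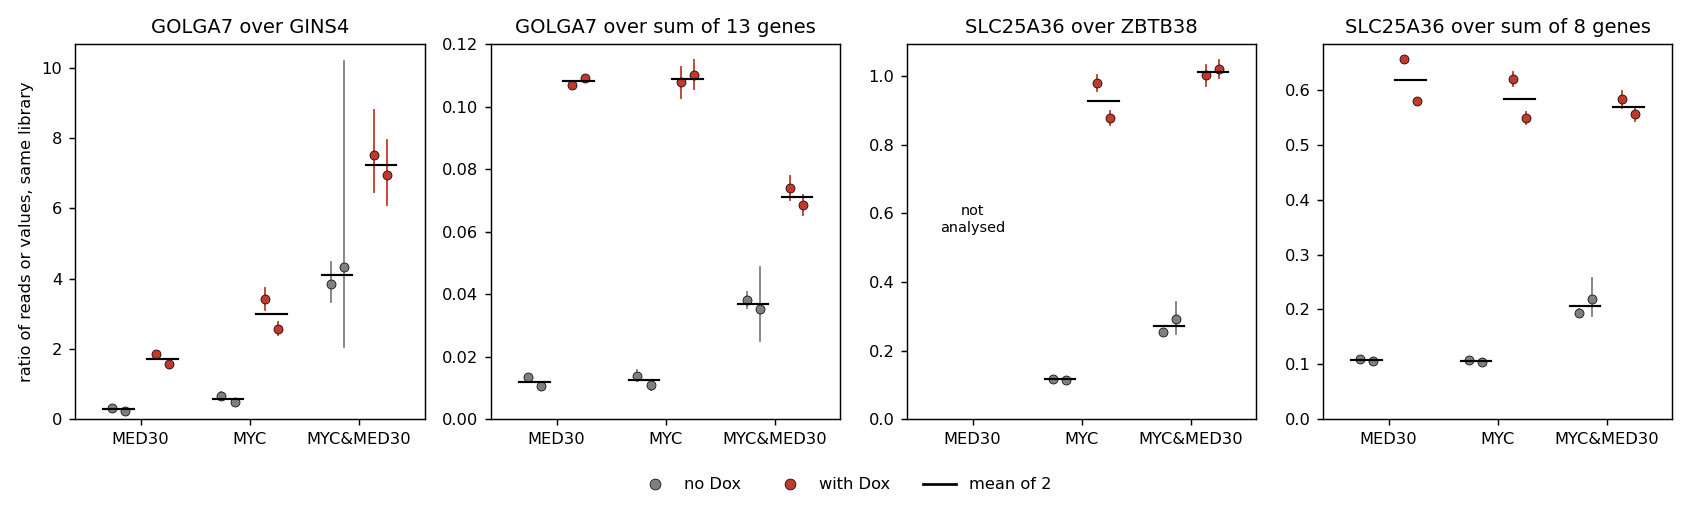
Ratio of GOLGA7 to GINS4 or to 13 neighbours, and of SLC25A36 to ZBTB38 or to 8 neighbours, in each library (vertical axis, from 0) by labelled line (horizontal axis), without Dox in grey and with Dox in red, bars for exact 95% intervals of the counts and lines for the mean of 2. The grey points of MYC&MED30 sit above those of MYC in all panels (0.254 and 0.291 against 0.118 and 0.115 for SLC25A36 over ZBTB38). GOLGA7 over GINS4 in MED30 is to be read within that line, since GINS4 values there are higher against the MYC counts than those of GOLGA7.

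Of 13570 genes tested in all lines, 107 had a log2 fold change above 1 in both MYC and MED30. Ordered by the difference of MYC&MED30 from MYC, GOLGA7 was at place 2, after LINC01150 (-4.06) and before SAMD7 (-1.85), and SLC25A36 at place 27, between BST2 (-0.90) and ANKRD63 (-0.86). LINC01150 had 4 and 10 reads in the MYC controls and 47 and 59 with Dox, so its place rests on few reads. The difference was below 0 for 76 of the 107, a count to be read with the choice of genes by a high MYC value in mind.

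**Figure D4:**
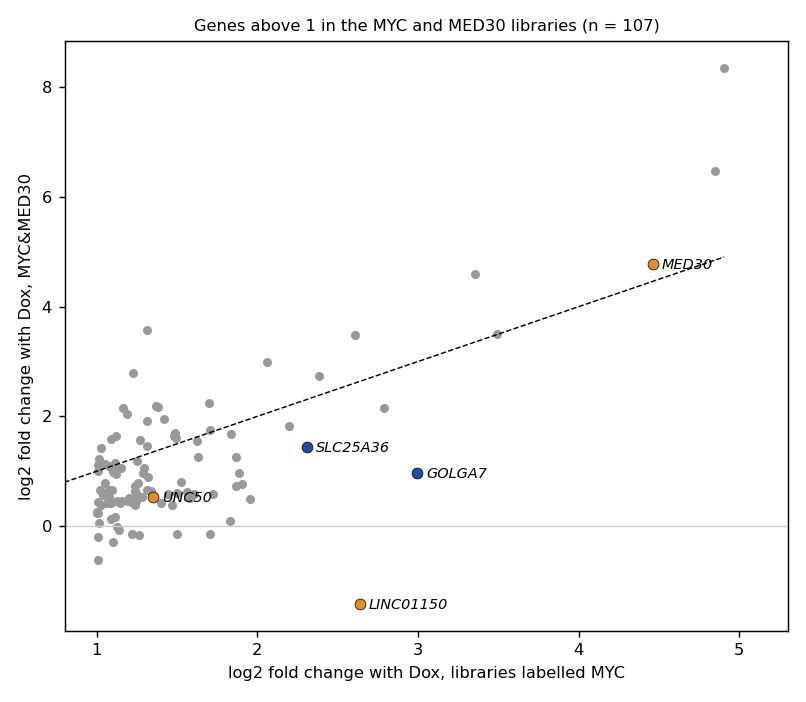
Log2 fold change with Dox in MYC&MED30 (vertical axis) against the libraries labelled MYC (horizontal axis) for the 107 genes above 1 in MYC and MED30, with equal responses on the dashed line. GOLGA7 (3.00 and 0.97) and SLC25A36 (2.31 and 1.44), in blue, lie below the line, as do UNC50 and LINC01150, in orange, while MED30, also in orange, lies above it.

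The genes most like GOLGA7 over the 8 count libraries, by Pearson's r of log2 CPM among the genes tested, were FAM157A (0.987), UNC50 (0.984), CDC20 (0.979), USP35 (0.979) and OGFR (0.972). Those named for SLC25A36, 4 of its 5, were CREB3L1 (0.988), PARP1 (0.985), PRKCI (0.981) and OGFR (0.980). The libraries share depth and scaling across genes, and the best of 19318 genes were taken, so r is a description. UNC50, a Golgi membrane protein, was at 23.0 and 20.3 CPM in MYC controls, 55.1 and 55.5 with Dox, 37.3 and 40.4 in MYC&MED30 controls and 50.4 and 59.0 with Dox. Its uninduced mean was 1.80-fold higher in MYC&MED30 and its induced means were within 1.01-fold.

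The palmitoylation list of 35 genes besides GOLGA7 holds ZDHHC enzymes, their partners, thioesterases and RAS, and 34 were tested. In MYC 1 rose, 2 fell and 31 passed no test, in MYC&MED30 the counts were 1, 1 and 32, and in MED30 1, 2 and 29 of 32. The 2.94% that rose and 5.88% that fell in MYC were no more than the 5.32% and 7.71% of all genes, and the 2.94% each way in MYC&MED30 no more than 3.65% and 3.09%. Medians were -0.02, -0.01 and 0.01, against 0.01, 0.02 and 0.01 over all genes. The palmitoyltransferase ZDHHC14 fell in all of them (-0.74 in MYC, adjusted p = 2.87e-06, -0.58 in MYC&MED30, 0.000223, and -0.70 in MED30, 0.000176). ZDHHC11 fell in MYC (-0.34, adjusted p = 0.0181) and MED30 (-0.30, 0.0330), and the thioesterase LYPLA2 rose there (0.68, 0.00316, and 0.70, 0.0184). SELENOK, a partner of ZDHHC6, rose in MYC&MED30 (0.80, SE 0.13, adjusted p = 0.000148). PPT1, a lysosomal thioesterase, stood at -0.25 in MYC&MED30 (adjusted p = 0.155). ZDHHC9, the enzyme GOLGA7 works with, stood at 0.31 in MYC (SE 0.12, adjusted p = 0.0766), 0.34 in MED30 (SE 0.11, 0.0616) and 0.08 in MYC&MED30 (SE 0.13, 0.801).

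Of 52 mitochondrial carriers besides SLC25A36, 50 were tested in the count tables. In MYC 1 rose and 5 fell, in MED30 1 of 47 rose and 5 fell, and in MYC&MED30 2 rose and none fell by edgeR, against 1 and none by DESeq2 and 11 and 2 at an unadjusted p under 0.05. The shares that fell, 10.0% in MYC and 10.6% in MED30, stood near the 7.71% and 8.63% of all genes, and those that rose, 2.00% and 2.13%, under 5.32% and 7.37%, so the carriers are described one by one. In MYC&MED30 the 2 of 50 that rose by edgeR stood near the 3.65% of all genes, and none fell, against 3.09%. The share of all genes with an unadjusted p under 0.05 is not given here. The 11 and 2 carriers at that limit are thus no measure of a rise across the carriers. Medians were 0.03 in MYC, 0.07 in MYC&MED30 and 0.04 in MED30. SLC25A45 rose in MYC (0.67, SE 0.13, adjusted p = 0.000555), MED30 (0.54, 0.0243) and MYC&MED30 (0.56, 0.0370), the last of which was lost with DESeq2 and without MYC&MED30 control 1, control 2 or overexpression 1. SLC25A42, a coenzyme A carrier, rose in MYC&MED30 alone among the calls (0.66, SE 0.13, adjusted p = 0.000982), and SLC25A26, a carrier of S-adenosylmethionine, stood at 0.31 there (0.0586). SLC25A51, a carrier of NAD, SLC25A37 (mitoferrin), SLC25A24, SLC25A13 and SLC25A3, the phosphate carrier, fell in MYC and MED30, by 0.29 to 0.44 in MYC. The highest log2 fold change of any tested carrier other than SLC25A36 was 0.94 in MYC, 0.66 in MYC&MED30 and 1.04 in MED30. SLC25A33, the other pyrimidine nucleotide carrier, stood at -0.13 in MYC (adjusted p = 0.386) and -0.05 in MYC&MED30 (0.869).

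Among 15 replication helicase genes GINS4 was the 1 that rose in MYC, while 5 fell, MCM5 (-0.59, adjusted p = 0.000128), MCM6 (-0.52, 0.000225), MCM4 (-0.46, 0.00127), MCM3 (-0.43, 0.00283) and MCM7 (-0.36, 0.0061), all subunits of the MCM ring. The MED30 libraries gave the same 1 and 5, which is not a repeat, since their values are not separate from those labelled MYC. The share that fell was 33.3% in both, against 7.71% and 8.63% of all genes. In MYC&MED30 none rose by edgeR, by DESeq2 or at an unadjusted p under 0.05, and MCM5 (-0.56, adjusted p = 0.00321) and MCM4 (-0.50, 0.00411) fell, 13.3% of the list against 3.09% of all genes. Medians over the 15 were -0.17 in MYC, -0.13 in MYC&MED30 and -0.13 in MED30. The other GINS subunits stood near 0 in MYC, GINS1 at -0.04 (adjusted p = 0.834), GINS2 at 0.05 (0.834) and GINS3 at -0.11 (0.666).

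The lists of the remaining neighbours were short, so their calls are read as single genes. Of the Wnt antagonists 10.0% fell in MYC&MED30, against 3.09% of all genes. Of the ankyrins and spectrins 9.09% rose and 18.2% fell in MYC, against 5.32% and 7.71% of all genes. In MED30 the shares were 11.1% and 22.2%, against 7.37% and 8.63%, and in MYC&MED30 18.2% and 0%, against 3.65% and 3.09%. Of 10 tested Wnt antagonists DKK1 fell in MYC&MED30 (-0.87, SE 0.12, adjusted p = 2.05e-05), the only call in any line by edgeR or limma (in MYC 0 were called by DESeq2 too and 2 had an unadjusted p under 0.05, and in MED30 0 of 4 had one), while DKK4, which lies within 1 Mb of GOLGA7, stood at 0.59 (0.153) and SFRP5 at 0.34 (0.507). Of 11 ankyrins and spectrins SPTBN4 rose in MYC (0.63, adjusted p = 0.000619), MED30 (0.70, 0.00516) and MYC&MED30 (0.56, 0.0202), SPTBN5 rose in MYC&MED30 (0.61, 0.0311), and SPTBN1 fell with ANK1 in MYC (-0.31, 0.0346) and MED30 (-0.26, 0.0411). None of the 4 SPSB genes passed the edgeR, DESeq2 or limma test in any line, and 1 had an unadjusted p under 0.05, SPSB1 in MYC&MED30, with SPSB1 at -0.23 (0.203) and SPSB3 at 0.02 (0.972) in MYC&MED30. ZBTB4 and ZBTB33, which also bind methylated CpG, stood at 0.04 (0.867) and 0.02 (0.971) in MYC and at -0.10 (0.684) and -0.01 (0.992) in MYC&MED30, so ZBTB38 was the only one of the 3 called. DESeq2 called none of the ankyrins and spectrins in MYC&MED30. The MYC&MED30 group means of SLC25A33, SPSB3 and ZBTB33 ran against the sign of their fitted values, which lay near 0 and passed no test.

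Many calls of these lists were lost when 1 library was left out. In 70 of 76 such losses the log2 fold change stayed within 1.5 times its value, as for ANK1 in MYC, at -0.31 and -0.32 without either control. The 6 others were DKK1 (-0.53), SELENOK (1.25) and SPTBN4 (0.17) in MYC&MED30 without its control 1, and SLC25A24 (-0.20), SLC25A3 (-0.18) and SPTBN1 (-0.16) in MYC without its overexpression 2. Of the 76 losses, 24 were in MED30, whose responses are not separate from those of MYC. Some left out a library of the other line, which hardly enters the fold change, as for ANK1 in MYC without MYC&MED30 overexpression 1 (-0.31). The 70 are thus no measure of how stable the effects were. With MYC&MED30 control 1 left out, only the shallow control remains, and every MYC&MED30 list call but that of ZDHHC14 was lost, that of ZBTB38 included. Without MYC&MED30 overexpression 1 the MYC&MED30 calls of MCM4, SLC25A45, SPTBN4, SPTBN5 and ZBTB38 were lost, without overexpression 2 those of SPTBN5 and ZBTB38, and without either of them the MYC calls of ANK1, SLC25A13, SLC25A3 and SPTBN1. Without MYC control 1 the calls in MYC of LYPLA2, ZDHHC11, SLC25A13, SLC25A24, SLC25A3, SLC25A37, MCM7, ANK1 and SPTBN1 were lost, and without MYC control 2 the same but LYPLA2, with SLC25A51 and MCM3 besides. The MYC&MED30 call of SPTBN5 was also lost without either MYC control. Without MYC overexpression 2 those of LYPLA2, ZDHHC11, SLC25A13, SLC25A24, SLC25A3 and SPTBN1 were lost. In MED30, leaving out either control ended the calls of ANK1, ZDHHC11, SLC25A13, SLC25A24, SLC25A3, SLC25A37, SLC25A51, MCM3, MCM4, MCM7 and SPTBN1, while MCM5 was lost without control 1 and SLC25A45 without control 2. GINS4 in MYC kept its call in all 15 alternatives (log2 0.48 to 1.17, highest adjusted p = 0.0399), ZBTB38 in MYC in all 15 (-0.77 to -0.54, highest adjusted p = 0.00151) and ZDHHC14 in all of those run in each line.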

How the data were processed

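PRO-seq reads were trimmed with Trim Galore, aligned with Bowtie2 to hg38 and counted on the sense strand over RefSeq genes with featureCounts 2.0.3 by the authors, who tested them with DESeq2 2.11.40.8. The deposited MYC and MYC&MED30 tables hold raw counts per gene. The deposited MED30 tables hold whole numbers of nearly equal totals, treated as a score, since the scaling the authors applied is not given in the sources used here. For the counts, edgeR 4.0.16 fitted the 8 libraries together (quasi-likelihood test, TMM factors, genes kept by filterByExpr) and limma 3.58.1 the MED30 score (log2 of the TMM-scaled value + 1, values of at least 10 in at least 2 libraries), with Benjamini-Hochberg adjustment and calls at adjusted p under 0.05, in R 4.3.3. Intervals at 95% use the test's standard error. No test set MED30 against MYC&MED30. The genes and the lists of related genes were chosen with earlier results of these data known, so GOLGA7 and SLC25A36 have no p-value. Named besides were the 3 nearest tested genes on each side, any called gene within 1 Mb, up to 3 members of each list by p in MYC&MED30 and counts of 5 or fewer, and the 5 genes of most like pattern. ZDHHC9, SLC25A33, SLC25A4, SLC25A5, SLC25A12, SLC25A47, GINS1, GINS2, GINS3, and the genes beside GOLGA7 and SLC25A36 in the order of differences were added after their values were seen. Alternatives were DESeq2 1.42.0, other scalings, filters, pseudocounts, windows, thinning, a replicate block and leaving out each library. The fits were tested on simulated data. Values of some genes that the naming rule covers are not reported here.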

Additional observations from a re-analysis of the deposited data

Results flagged for a closer look

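Among the members, the genes within 1 Mb and the lists, 5 genes were flagged for a response that differed between MYC&MED30 and MYC, GOLGA7 and SLC25A36 among them. Over all 19318 genes tested, 0.714% were higher and 0.357% lower in the test of that difference. Another 6 tested genes lay on opposite sides of their controls in MYC&MED30 and MED30. With 2 libraries a group such separation can arise by chance. Its share over all genes was not counted, so these 6 are a description. GOLGA7 (MYC&MED30 minus MYC, -2.03 on the log2 scale) and SLC25A36 (-0.87) were chosen for that difference, so it is a description. Among the lists, the test of the difference passed for SELENOK (0.69, edgeR adjusted p = 0.0316), SLC25A42 (0.82, 0.00859) and DKK1 (-0.66, 0.0330). They made up 2.94%, 2.00% and 10.0% of the tested genes of their lists, 1 gene each. The SELENOK difference was lost in 8 of 14 alternatives, with DESeq2, after thinning all libraries to the shallowest (0.81, adjusted p = 0.480) and without any 1 of MYC control 1 or 2 or the 4 MYC&MED30 libraries. The DKK1 difference was lost in 7 of 14, with the replicate block, after the same thinning (-0.29, adjusted p = 0.865) and without either MYC control, MYC&MED30 control 1 or either MYC&MED30 overexpression library. The SLC25A42 difference was lost in 3 of 14, without MYC control 1 or MYC&MED30 control 1 and after thinning.

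KAT6A, a histone acetyltransferase 419 kb beyond GOLGA7, and ATP1B3, a subunit of the sodium pump 896 kb beyond SLC25A36, lay above the controls in both overexpression libraries of MYC&MED30 (log2 fold change 0.19 and 0.048) and below them in both of MED30 (-0.19 and -0.09). The carriers SLC25A12 (0.13 and -0.17), SLC25A5 (0.25 and -0.17) and SLC25A47 (0.37 and -0.20) likewise lay above the controls in MYC&MED30 and below them in MED30, and SLC25A4 (-0.10 and 0.19) below and above. These differences were not tested, and the 6 genes passed the test in neither line. Against the libraries labelled MYC, the differences were 0.42 (adjusted p = 0.222) for KAT6A and 0.18 (adjusted p = 0.627) for ATP1B3, and those of the 4 carriers did not pass the test either (adjusted p = 0.192 to 0.521).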

How the results depend on the processing

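The responses of GOLGA7 and SLC25A36, which chose these genes, kept their direction in all alternatives run. The alternatives reused the same libraries, so the ranges describe the processing and are no independent support for the responses. GOLGA7 ranged from 2.83 to 3.19 in MYC, 2.90 to 3.27 in MED30 and 0.89 to 1.24 in MYC&MED30, with a difference of -2.23 to -1.76, and SLC25A36 from 2.14 to 2.48, 2.26 to 2.52 and 1.41 to 1.49, with a difference of -1.04 to -0.70. Leaving out 1 library gave GOLGA7 in MYC&MED30 0.92 to 1.24, and SLC25A36 there was 1.49 with library size alone or thinning. Depth limits MYC&MED30 control 2, SFRP1 and SPSB4.

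The weakest values turned. SPSB4 was 0.092 with library size alone in MYC, and by DESeq2 0.076 in MYC&MED30 and 0.14 as a difference. Leaving out 1 library gave SPSB4 -0.44 to 0.22 in MYC, -0.28 to 7.58 in MYC&MED30 and -0.33 to 7.64 as a difference, the highest fitted against a lone control of 0 reads and so no bound, and gave SFRP1 in MYC -0.10 to 0.94.

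Genes called within 1 Mb of GOLGA7 in MYC numbered 2, and 1 with the replicate block or thinning. In MYC&MED30 1 became 2 with library size alone, with the 4 libraries of the line or with the thresholds of the study (p under 0.05, log2 beyond 0.35), and 0 in a window of 0.5 Mb. For the difference those thresholds gave 3 in place of 0, and in MED30 1 in place of 3, where no filter gave 0. The share of all genes under the thresholds of the study is not given here. Around SLC25A36 in MYC 2 became 1 with library size alone, the replicate block, the 4 libraries or 0.5 Mb. In MYC&MED30 1 became 2 with the 4 libraries or the study's thresholds, and in MED30 0 without TMM or filter, in 0.5 Mb or with those thresholds. Leaving out 1 library gave 1 to 6, 0 to 2, 0 to 3 and 1 to 6 around GOLGA7 in MYC, MYC&MED30, the difference and MED30, and 1 to 3, 0 to 2 and 0 to 3 around SLC25A36 in MYC, MYC&MED30 and MED30. The cause of these changes was not tested. With the sum of neighbours as denominator, GOLGA7 rose by 3.14 in MYC and 3.18 in MED30 on the log2 scale, and SLC25A36 by 2.46 in MYC and 1.46 in MYC&MED30.

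Replicates share only a number. Deviations of same-numbered libraries correlated at -0.15, -0.12 and -0.18 in MYC, MYC&MED30 and MED30. With the replicate block, GOLGA7 was at 3.01, 1.02 and -1.99 for MYC, MYC&MED30 and the difference, and the block ended no call of the neighbours with named values but those of ANK1 and RASA2 in MYC and POLB in MED30. Over all genes it gave 1812 calls in MYC against 2518, and crossing the numbers, an alternative chosen after seeing the data, gave 3444. In MYC&MED30 the counts were 929 with the block, 1302 without and 1686 crossed, for the difference 139, 207 and 610, and in MED30, where the block raised the count, 2523, 2364 and 4004.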

Other observations

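Several neighbours differed between the lines without Dox, given here as CPM values with no test. Those named are examples, and the share of all genes that differ so was not counted. Other neighbours differed less, such as ANK1, with a MYC&MED30 control mean 0.91 times that of MYC, SLC20A2 (0.92), IKBKB (1.11) and KAT6A (1.17). AP3M2 had 18.7 and 19.1 in the MYC controls and 40.9 and 36.0 in the MYC&MED30 controls, 2.04-fold higher in the latter. GPAT4 had 55.1 and 56.5 against 88.5 and 83.8, 1.54-fold higher, and PXYLP1 22.9 and 21.4 against 34.5 and 34.6, 1.56-fold higher. ATP1B3 had 596 and 584 against 220 and 213, 2.73-fold lower in MYC&MED30, and GINS4 was 2.18-fold and ZBTB38 1.65-fold lower there. None of these libraries overlapped between the lines. A higher uninduced level in MYC&MED30 was thus seen in neighbours with no called response as well as in GOLGA7 and SLC25A36, and a lower one in others. Line and library preparation cannot be told apart.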
